A study of Mus musculus with 12 samples.

Results

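The libraries labelled G3-YSD 2 and HSV 2 were set against those labelled mock 1 and hpRNA 1, 4 of the 12 RNA sequencing libraries of this series on mouse L929 cells, an established fibroblast line. The 4 were chosen by their counts and not by their labels, as pairs of libraries that lie closest to each other. The difference between the pairs was therefore selected on the measured values, and it is given here as a description with no test. The mock libraries are labelled as without treatment, the hpRNA libraries as after hpRNA transfection, the G3-YSD libraries as G3-YSD transfection and the HSV libraries as HSV transfection. HT-DNA transfection and cGAMP stimulation make up the other labels, each of the 6 labels having 2 libraries. All cells are one line, RNA was taken 6 h after transfection, and polyadenylated RNA was sequenced in paired reads of 150 bases. The digit that ends each title was read as a replicate number, although for HSV it could also name a virus type. Nothing says that the 2 libraries of a label came from separate cultures, so the p-values below measure only the spread between libraries, which may be technical. The source is worded as a mouse fibroblast cell line for mock and hpRNA and as L929 cells for G3-YSD and HSV, so a batch of the latter and their treatment cannot be told apart. In bulk RNA, fewer cells with a transcript and less of it per cell cannot be told apart either.

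The labels and the counts disagreed about these libraries. The distance between libraries is given as a ratio to counting noise: for each gene with 100 or more counts, the squared gap between its counts was divided by what counting alone would give, and the median was taken, so that 1 is counting noise alone. G3-YSD 2 and HSV 2 lay at a ratio of 1.41 and mock 1 and hpRNA 1 at 1.83, so both pairs differed by more than counting noise alone. G3-YSD 2 lay at 82.6 from G3-YSD 1, HSV 2 at 76.3 from HSV 1, mock 1 at 9.34 from mock 2 and hpRNA 1 at 8.89 from hpRNA 2. The next library to G3-YSD 2 was hpRNA 1 at 63.8, and the next to mock 1 was HT-DNA 1 at 7.45. Total counts were 13737622 in G3-YSD 2, 12650790 in HSV 2, 16844344 in mock 1 and 16938176 in hpRNA 1. Despite the lower totals, 23997 and 23909 genes had a count in G3-YSD 2 and HSV 2, against 21776 and 21635 in mock 1 and hpRNA 1. Of the fibroblast markers, Vim stood between 2104 and 2758 CPM and Col1a1 between 258 and 390 CPM in the 4 libraries, while Twist1 had no count. CPM values are counts relative to library size, scaled by the trimmed mean of M values (TMM) throughout.

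Cytosolic DNA is sensed by cGAS, which makes the second messenger cGAMP for the adaptor STING, whereas double-stranded RNA is sensed by RIG-I and MDA5 through the adaptor MAVS. Both routes activate the transcription factors IRF3 and NF-kB and induce Ifnb1, whose product interferon beta then drives the interferon-stimulated genes through its receptor. A messenger RNA normally ends where a cleavage complex cuts the nascent transcript downstream of a polyadenylation signal, and reads well beyond that site are scarce in polyadenylated RNA.

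The promoters of 4 interferon-stimulated genes are shown because they head the groups described next: Ifit1 and Rsad2 stood far above mock 1 and hpRNA 1 in G3-YSD 2 and HSV 2, Isg15 stood above them by a smaller fold and Irf7 did not. Each runs from 250 bases before to 50 bases after the start in the RefSeq table of build GRCm38.p6, at chr19:34640639-34640938 (plus strand), chr12:26456403-26456702 (minus strand), chr4:156200769-156201068 (minus strand) and chr7:141266375-141266674 (minus strand). Capitals mark matches to GAAANNGAA on either strand, a core to which interferon regulatory factors bind, and matches may overlap.
Ifit1 promoter: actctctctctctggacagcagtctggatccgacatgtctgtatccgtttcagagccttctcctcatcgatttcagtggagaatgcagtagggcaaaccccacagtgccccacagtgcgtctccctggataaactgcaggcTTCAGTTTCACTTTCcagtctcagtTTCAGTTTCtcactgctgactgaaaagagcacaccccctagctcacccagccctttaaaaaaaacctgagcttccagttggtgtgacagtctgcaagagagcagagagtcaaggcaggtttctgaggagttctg
Rsad2 promoter: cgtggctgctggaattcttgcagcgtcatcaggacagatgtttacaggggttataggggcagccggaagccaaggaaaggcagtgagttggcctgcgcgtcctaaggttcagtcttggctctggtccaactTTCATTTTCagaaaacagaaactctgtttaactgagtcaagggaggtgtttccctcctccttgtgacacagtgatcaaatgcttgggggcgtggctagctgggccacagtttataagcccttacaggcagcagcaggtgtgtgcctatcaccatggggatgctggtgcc
Isg15 promoter: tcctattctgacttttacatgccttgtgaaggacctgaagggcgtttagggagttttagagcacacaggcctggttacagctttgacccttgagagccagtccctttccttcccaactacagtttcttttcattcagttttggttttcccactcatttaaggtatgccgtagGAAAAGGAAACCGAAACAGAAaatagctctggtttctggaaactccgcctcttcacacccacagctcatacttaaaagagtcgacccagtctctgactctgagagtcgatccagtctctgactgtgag
Irf7 promoter: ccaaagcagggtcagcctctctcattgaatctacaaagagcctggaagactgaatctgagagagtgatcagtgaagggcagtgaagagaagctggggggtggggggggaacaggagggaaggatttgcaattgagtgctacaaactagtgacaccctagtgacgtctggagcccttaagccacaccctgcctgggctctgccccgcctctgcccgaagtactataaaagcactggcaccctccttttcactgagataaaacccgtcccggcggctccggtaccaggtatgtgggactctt
The Ifit1 window held 3 matches, Isg15 3, Rsad2 1 and Irf7 0. A match was present in the windows of 12 of 19 interferon-stimulated genes that stood 2-fold higher in G3-YSD 2 and HSV 2 and had an entry, which is 63.2%. It was present in 29 of 53 of the others, which is 54.7%, and in 9.76% of the 27025 genes of the whole table. The shares of both sets of interferon-stimulated genes were thus above that of all promoters and close to each other.

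Set against mock 1 and hpRNA 1, G3-YSD 2 and HSV 2 held a small and uneven interferon response. Ifnb1 had 0 counts in mock 1 and hpRNA 1 and stood at 4.31 CPM in G3-YSD 2 and 4.13 CPM in HSV 2, at least 24.1-fold higher against a floor of 3 counts per library. Ifna4, an interferon alpha gene, stood at 2.15 and 2.06 CPM, with 0 and 1 counts in mock 1 and hpRNA 1. The libraries that share their labels were higher still, at 26.6 CPM of Ifnb1 in G3-YSD 1 and 23.9 CPM in HSV 1. The summed level of the 21 interferon genes was 9.23 CPM in G3-YSD 2 and 9.41 CPM in HSV 2. That was above mock 2, hpRNA 2, HT-DNA 1 and cGAMP 1, at 3.36, 2.97, 1.77 and 0.920 CPM. HT-DNA 2 and cGAMP 2 were higher, at 18.7 and 17.8 CPM. Against the labels' own mock libraries the edgeR quasi-likelihood test gave Ifnb1 a log2 fold change of 4.08 (SE, the standard error, 2.19) for G3-YSD, at an adjusted p of 0.284.

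Several chemokine and antiviral genes stood high in G3-YSD 2 and HSV 2 against mock 1 and hpRNA 1, yet below each of the other 8 libraries. Cxcl10, a chemokine that attracts T cells, stood at 1.71 CPM in mock 1, 1.37 in hpRNA 1, 75.3 in G3-YSD 2 and 66.7 in HSV 2. Ccl5, another chemokine, stood at 0.512, 0.742, 39.4 and 32.2 CPM in the same order. Rsad2, which encodes the antiviral enzyme viperin, stood at 3.41, 3.65, 74.0 and 64.2 CPM. These 3 genes did not overlap between the pairs, by 39.1-fold to 55.0-fold for Cxcl10, 43.4-fold or more for Ccl5 and 17.6-fold to 21.7-fold for Rsad2. In G3-YSD 1 and HSV 1 the same genes stood at 1748 and 1766 CPM for Cxcl10, 811 and 829 for Ccl5 and 3456 and 3500 for Rsad2. Oasl1, a relative of the oligoadenylate synthetases, stood at 4.26 CPM in mock 1, 3.71 in hpRNA 1, 57.0 in G3-YSD 2 and 57.6 in HSV 2.

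A further group of interferon-stimulated genes stayed much nearer to mock 1 and hpRNA 1. Irf7, the factor that amplifies interferon alpha production, stood at 3.07 CPM in mock 1, 2.68 in hpRNA 1, 3.08 in G3-YSD 2 and 2.31 in HSV 2. Usp18, which removes ISG15 from proteins and dampens interferon signalling, stood at 2.44, 2.51, 5.15 and 4.95 CPM. Isg15, the ubiquitin-like modifier itself, stood at 3.13, 2.74, 7.07 and 6.69 CPM. Isg15 stood 2.14-fold to 2.58-fold higher. The pairs of Irf7 overlapped and those of Usp18 and Isg15 did not, and all 8 other libraries were above all 4 for these genes. In those 8, Irf7 lay between 30.7 and 248 CPM and Isg15 between 76.4 and 869 CPM. Mx1, an antiviral GTPase, stood at 0.625 CPM in mock 1, 0.0571 in hpRNA 1, 1.23 in G3-YSD 2 and 2.06 in HSV 2, against 6.71 CPM in HT-DNA 1, the lowest of the others.

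**Figure D1:**
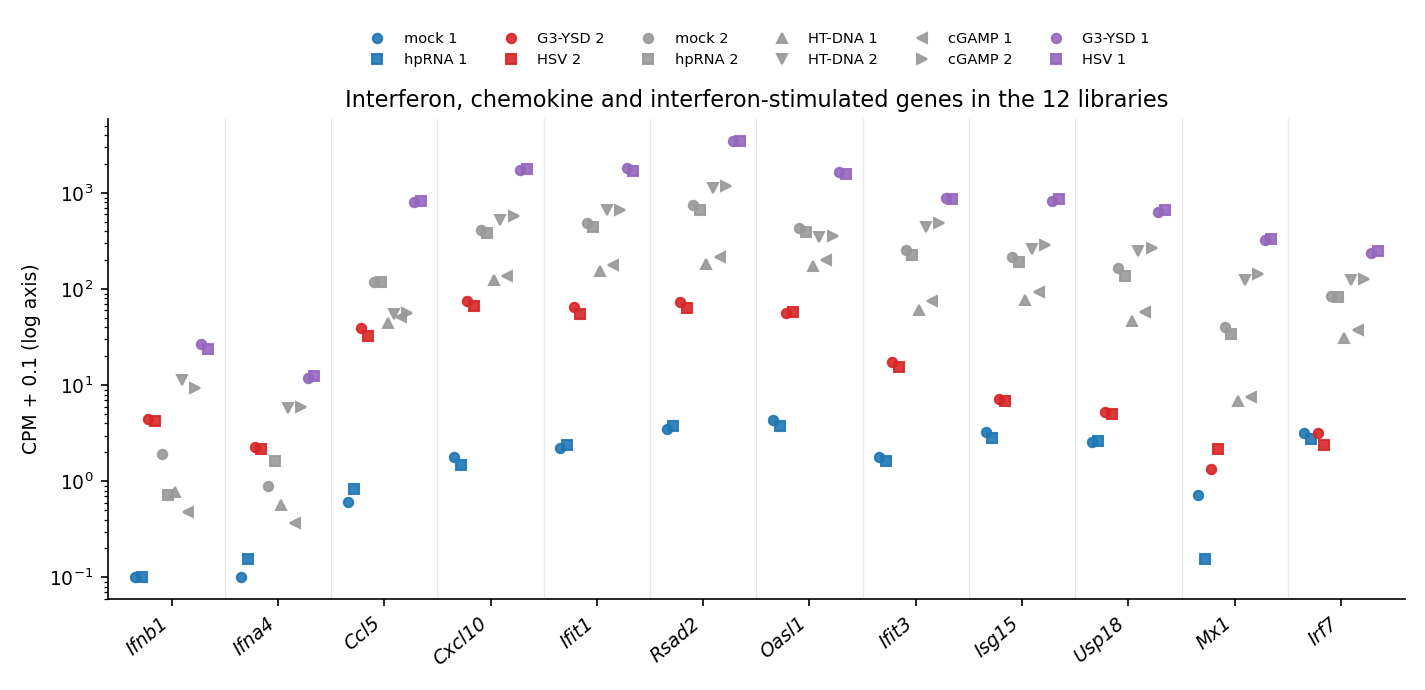
Level of 12 interferon, chemokine and interferon-stimulated genes in each of the 12 libraries, as CPM + 0.1 on a log axis, 1 point per library. The red points of G3-YSD 2 and HSV 2 sit well above the blue points of mock 1 and hpRNA 1 for genes from Ifnb1 to Ifit3, and near them for Irf7, while the purple points of G3-YSD 1 and HSV 1 are the highest for each gene shown.

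Over the whole list of 92 interferon-stimulated genes, 22 stood at least 2-fold higher in both G3-YSD 2 and HSV 2 than in both mock 1 and hpRNA 1, and 3 stood lower. By the same rule, which also asks for 1 CPM in the lower library of the higher pair, 7.76% of all 16840 genes tested stood higher and 8.91% lower. The list's median log2 difference was 0.45, against 0.04 over all genes. Its summed level was 1716 CPM in mock 1, 1731 in hpRNA 1, 2034 in G3-YSD 2 and 2015 in HSV 2. All other libraries were higher, at 12022.5 CPM in mock 2, 11002 in hpRNA 2, 40887 in G3-YSD 1 and 40799 in HSV 1. The HT-DNA and cGAMP libraries lay between 5530 and 18182 CPM. The 3 lower genes were Trim25, a ubiquitin ligase that activates RIG-I, Slfn5 and Parp11. Trim25 stood at 150 CPM in mock 1, 156 in hpRNA 1, 74.0 in G3-YSD 2 and 74.6 in HSV 2. Ifit2, named after its values were seen, lay the other way from its neighbour Ifit1, at 41.2, 37.4, 22.5 and 22.5 CPM.

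The tests by label held these libraries together with G3-YSD 1, HSV 1 and mock 2, so a call by label here or below is no separate support for a difference between the selected pairs. In the edgeR quasi-likelihood fit of all 12 libraries, 302 genes were called higher (1.79%) and 567 lower (3.37%) for G3-YSD against mock at an adjusted p under 0.05. For HSV against mock 291 were called higher (1.73%) and 585 lower (3.47%). Both comparisons share the 2 mock libraries. Upper quartile scaling turned the split to 364 higher and 314 lower for G3-YSD and to 347 and 304 for HSV. No gene was called in these fits without mock 1, although 2296 genes for G3-YSD and 2288 for HSV had an unadjusted p under 0.05. None was called without mock 2 either, with 2637 and 2655 such genes. Without G3-YSD 2, 77 genes were called for G3-YSD, and without HSV 2, 130 were called for HSV. Of the 1307 genes that stood higher in G3-YSD 2 and HSV 2, 191 were called higher for G3-YSD, and of the 1501 that stood lower, 268 were called lower.

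The sensors and adaptors of both routes were present. Cgas stood at 8.75 CPM in mock 1, 7.36 in hpRNA 1, 6.54 in G3-YSD 2 and 5.28 in HSV 2, and the STING gene, Tmem173 in this annotation, at 19.7, 22.0, 14.3 and 14.3 CPM. Irf3 stood at 42.1, 38.2, 27.1 and 27.3 CPM. Among 31 sensing genes tested, 3 stood higher (9.68%) and 2 lower (6.45%), shares near the 7.76% and 8.91% over all genes. The 3 were Ddx58, Dhx58 and Ifih1 and the 2 were Mavs and Ticam1. Mavs stood at 54.1 CPM in mock 1, 57.5 in hpRNA 1, 18.6 in G3-YSD 2 and 18.2 in HSV 2. Ticam1, the adaptor of TLR3, stood at 40.6, 41.4, 10.9 and 9.83 CPM. Ticam1 fell in the labelled comparison, by 1.53 in log2 (SE 0.354) for G3-YSD against mock, at an adjusted p of 0.0473 by edgeR.

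Signalling genes outside the interferon system stood higher as well. Of 33 immediate-early genes tested, 13 stood higher (39.4%) and 2 lower (6.06%), with a median log2 difference of 0.57. Over all genes the shares were 7.76% and 8.91%. Myc, a growth-promoting transcription factor, stood at 224 CPM in mock 1, 238 in hpRNA 1, 1914 in G3-YSD 2 and 1892 in HSV 2, while the other 8 libraries lay between 204 and 283 CPM. Myc was thus high in these 2 libraries alone. Jun, a subunit of the AP-1 factor, stood at 64.9, 66.0, 334 and 319 CPM, and at 61.9 and 58.2 CPM in G3-YSD 1 and HSV 1. Ccn1, a matrix-associated signalling protein, stood at 15.1, 15.5, 211 and 209 CPM. Fosb, an AP-1 subunit, stood at 0.909, 1.20, 10.0 and 10.7 CPM. Ccn1 and Fosb rose in the labelled comparison, Fosb by a log2 fold change of 4.12 (SE 0.429) for G3-YSD against mock at an edgeR adjusted p of 0.00773. Ier3 and Jund stood lower, Ier3 at 67.4, 69.2, 26.8 and 25.6 CPM.

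Of 26 NF-kB genes tested, 6 stood higher (23.1%, against 7.76% over all genes) and 0 lower. Nfkbia, the inhibitor that NF-kB itself induces, stood at 91.0 CPM in mock 1, 96.1 in hpRNA 1, 298 in G3-YSD 2 and 286 in HSV 2. It rose by label, with a log2 fold change of 1.63 (SE 0.187) for G3-YSD at an edgeR adjusted p of 0.00835. Tnfaip3, the deubiquitinase A20, stood at 9.04, 9.41, 67.6 and 64.7 CPM. Of 25 chemokine and cytokine genes tested, 9 stood higher (36.0%) and 0 lower. Igf1, a growth factor, stood at 0.625, 0.856, 20.1 and 20.7 CPM, and at 8.15 and 8.40 CPM in G3-YSD 1 and HSV 1, while the 6 libraries labelled mock 2, hpRNA 2, HT-DNA and cGAMP lay between 0.649 and 0.896. Igf1 rose by label, with a log2 fold change of 4.30 (SE 0.581) for G3-YSD at an edgeR adjusted p of 0.0128.

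Several genes of the stress and metabolic lists stood lower, in lists whose shares are to be read against 8.91% lower over all genes. Of 35 hypoxia and glycolysis genes tested, 6 stood lower (17.1%) and 0 higher. Eno2, a glycolytic enolase, stood at 89.4 CPM in mock 1, 90.3 in hpRNA 1, 13.5 in G3-YSD 2 and 12.1 in HSV 2, and Vegfa, the angiogenic growth factor, at 309, 317, 115 and 112 CPM. Both fell by label, Eno2 by 2.49 in log2 (SE 0.351) and Vegfa by 1.64 (SE 0.237), at edgeR adjusted p of 0.0140 and 0.0145 for G3-YSD. Of 39 genes of the integrated stress and unfolded protein responses, 5 stood lower (12.8%) and 0 higher, while 22 had a higher mean, the list's median log2 difference was 0.17 and its summed level stood 1.33-fold to 1.35-fold higher. Atf4, the main factor of the integrated stress response, stood at 612, 654, 135 and 118 CPM, and at 684 and 637 CPM in G3-YSD 1 and HSV 1. Dnajb9, a chaperone of the endoplasmic reticulum, stood at 65.7, 61.3, 10.0 and 10.3 CPM. Hspa8, the constitutive HSP70, stood at 981, 1052, 482 and 464 CPM.

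Of 30 cholesterol and fatty acid synthesis genes tested, 4 stood lower (13.3%, against 8.91% over all genes) and 1 higher. The list's median log2 difference of -0.16 turned to 0.03 under upper quartile scaling. Fdps, an enzyme of the mevalonate pathway, stood at 8.75 CPM in mock 1, 9.19 in hpRNA 1, 2.46 in G3-YSD 2 and 2.39 in HSV 2. It fell by label, by 1.60 in log2 (SE 0.241) for G3-YSD at an edgeR adjusted p of 0.0162. Heat shock genes held 4 lower and 1 higher of 20, and their median of -0.12 turned to 0.06 under the same scaling.

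Ribosomal protein and respiratory chain transcripts stood somewhat higher. Of 88 ribosomal protein genes tested, 0 stood 2-fold higher and 1 lower, yet 85 had a higher mean in G3-YSD 2 and HSV 2. Their summed level was 49439 CPM in mock 1, 52538 in hpRNA 1, 75536 in G3-YSD 2 and 72978 in HSV 2. The mitochondrially encoded transcripts made up 2.52% and 2.49% of counts in mock 1 and hpRNA 1, 3.64% in G3-YSD 2 and 3.53% in HSV 2, and between 2.03% and 2.24% in the other 8 libraries. The 96 nuclear genes of the respiratory chain had a median log2 difference of 0.52. Of 32 replication-dependent histone genes that passed the filter on low counts, out of 70, 10 stood higher (31.25%, against 7.76% over all genes) and 0 lower. Any that passed the filter only where they are high had to differ. The summed level of the 70 was 315 CPM in G3-YSD 1 and 294 in HSV 1. It was lower in the 4 libraries, at 47.3 CPM in mock 1, 49.4 in hpRNA 1, 95.7 in G3-YSD 2 and 100 in HSV 2. Hist1h4k, a histone H4 gene, stood at 1.36, 1.26, 7.84 and 8.92 CPM, and rose by label with a log2 fold change of 2.46 (SE 0.321) at an edgeR adjusted p of 0.0128 for G3-YSD.

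The other lists held these counts, to be read against 7.76% higher and 8.91% lower over all genes. Of 8 interferon genes that passed the filter on low counts, out of 21, 3 stood higher. Of 33 fibroblast matrix and cytoskeleton genes 5 stood higher (15.2%) and 0 lower. Tnc, the matrix protein tenascin C, had 0 counts in mock 1 and hpRNA 1 and stood at 4.31 CPM in G3-YSD 2 and 4.87 in HSV 2, at least 25.2-fold higher against the floor. Of 25 p53 targets 4 stood lower (16.0%) and 1 higher (4.0%), and of 44 replication and mitosis genes 3 lower (6.82%) and 0 higher. Of 25 antioxidant genes 2 stood lower (8.0%) and 0 higher, with a median log2 difference of 0.23. Of 13 snoRNA host genes 3 stood lower (23.1%) and 0 higher. The lower shares of the replication and antioxidant lists were thus below the 8.91% over all genes. Among 4 nuclear long RNAs tested, Neat1 and Firre stood lower and Malat1 did not. Neat1, the scaffold RNA of paraspeckles, stood at 658 CPM in mock 1, 575 in hpRNA 1, 115 in G3-YSD 2 and 124 in HSV 2, and Malat1 at 454, 406, 805 and 823 CPM. Of 306 zinc-finger genes with numbered symbols 35 stood higher (11.4%) and 47 lower (15.4%), and of 10 fibroblast markers tested 1 stood higher (10.0%).

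**Figure D2:**
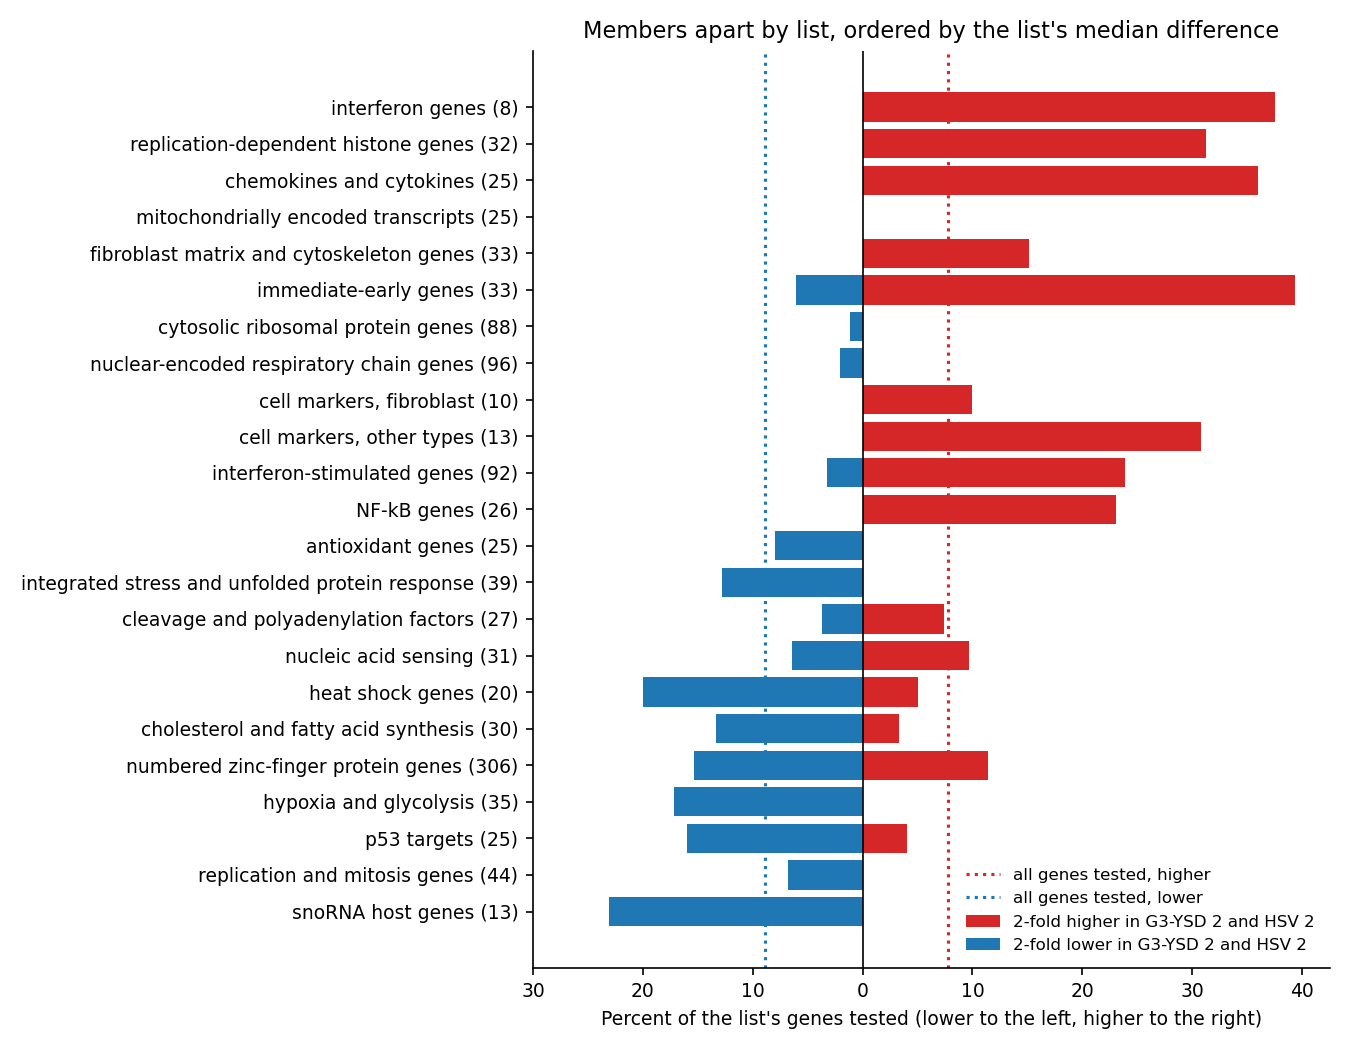
Percent of each list's tested genes that stood at least 2-fold higher (red, right) or lower (blue, left) in both G3-YSD 2 and HSV 2 than in both mock 1 and hpRNA 1, for the lists with at least 8 genes tested, whose number stands in parentheses. The dotted lines are the shares over all genes tested, 7.76% higher and 8.91% lower. Genes that passed the filter on low counts only through the libraries where they are high had to differ, so lists of low genes, such as the interferon genes with 8 of 21 tested, cannot be ranked against the others.

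The genes with the widest gap on the higher side were mostly genes barely counted in mock 1 and hpRNA 1. Tmem132b, which encodes a membrane protein, had 8 counts in mock 1, 3 in hpRNA 1, 752 in G3-YSD 2 and 723 in HSV 2. Cckar, the cholecystokinin A receptor, had 0, 0, 171 and 208 counts, at least 76.8-fold higher against a floor of 3 counts per library. Il17f, a cytokine of T cells, had 1, 1, 145 and 140 counts, and Chrm1, a muscarinic receptor, had 1, 0, 163 and 167 counts. These 4 genes had at most 17 counts in G3-YSD 1 or HSV 1, so they were high in G3-YSD 2 and HSV 2 only among these 6 libraries. Of the 12 such genes, 11 lay past the end of their nearest expressed gene, 9 of them on the same strand. The distances to that neighbour's end were 3.60 kb for Heatr9 past Ccl5, 0.630 kb for Dnah10 past Atp6v0a2, 14.4 kb for Tmem132b past Aacs, 12.4 kb for Il17f past Mcm3, 27.9 kb for Scml4 past Sec63 and 18.8 kb for Gjc1 past Eftud2. Heatr9 is the exception in level, since it stood higher in G3-YSD 1 and HSV 1, at 89.6 and 87.4 CPM, than in G3-YSD 2 and HSV 2, at 21.6 and 20.3 CPM, as Ccl5 did. No limit of distance was set for the 12, and Syt14 lay 55.3 kb past Diexf. Low genes, under a mean of 1 CPM in the libraries labelled mock 2, hpRNA 2, HT-DNA and cGAMP, were also placed beside their neighbours. Within 50 kb past an end on the same strand lay 33.3% of 812 low genes that stood higher and 11.3% of 3333 others. On the opposite strand these shares were 22.9% and 11.9%. Low genes could pass the filter on low counts through G3-YSD 2 and HSV 2 or through other libraries. The 812 and the 3333 were thus let in partly by different libraries, and their shares are not a like comparison.

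**Figure D3:**
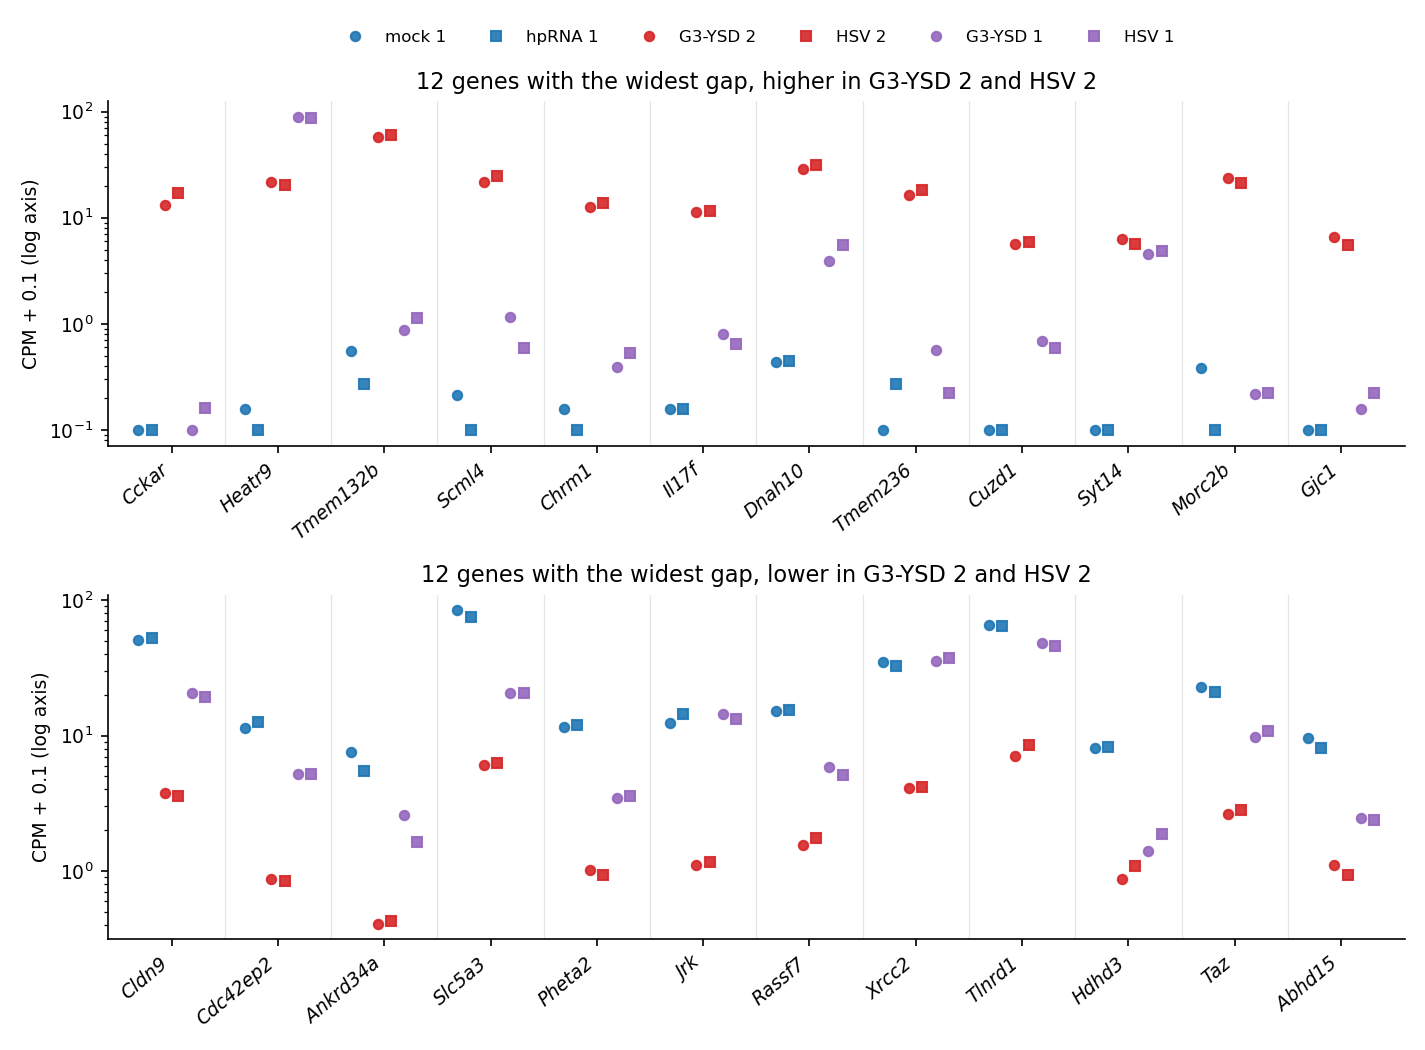
Level of the 12 genes with the widest gap in each direction in 6 libraries, as CPM + 0.1 on a log axis, 1 point per library. In the upper panel the red points of G3-YSD 2 and HSV 2 stand alone above the others for most genes, with Heatr9 and Syt14 also high in G3-YSD 1 and HSV 1; in the lower panel the red points are the lowest for each gene.

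The place of these genes was examined over the whole genome, with genes and positions from GENCODE M21 (GRCm38, the assembly of mm10). A gene was taken as silent when it had at most 2 counts in all over the 6 libraries labelled mock 2, hpRNA 2, HT-DNA and cGAMP, which left the 4 libraries out of the choice, and 30836 genes were silent. It was detected when it had at least 5 counts after each library was thinned to 12650790 counts, and a neighbour was expressed at a mean of 5 CPM or more in the same 6 libraries. Intervals are exact 95% Clopper-Pearson intervals and cover counting error only. Of 1480 silent genes within 50 kb past the end of an expressed gene on the same strand, 111 were detected in G3-YSD 2 (7.50%, interval 6.21% to 8.96%) and 120 in HSV 2 (8.11%, interval 6.77% to 9.62%). None was detected in mock 1, where the exact interval reaches 0.249%, and 1 was detected in hpRNA 1. The 6 libraries that chose the silent genes lie nearer by counts to mock 1 and hpRNA 1 than to G3-YSD 2 and HSV 2. Mock 2, for example, lay at a ratio to counting noise of 9.34 from mock 1 and 66.1 from G3-YSD 2. Low shares in mock 1 and hpRNA 1 thus follow in part from that choice. Of 1744 silent genes within 50 kb before the start of an expressed gene on the same strand, 16 were detected in G3-YSD 2 (0.917%) and 17 in HSV 2 (0.975%). Of 21444 silent genes over 50 kb from any expressed gene, 100 were detected in G3-YSD 2 (0.466%) and 90 in HSV 2 (0.420%). Within 50 kb the intervals past the end and before the start did not overlap.

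The share also depended on distance. On the same strand past the end it was 9.06% in G3-YSD 2 and 10.6% in HSV 2 at 5 to 20 kb, 6.87% and 7.12% at 20 to 50 kb, 3.11% and 2.86% at 50 to 100 kb and 0.588% and 0.490% beyond 100 kb. Within 5 kb, 10 of 175 silent genes were detected in G3-YSD 2 (5.71%, interval 2.77% to 10.3%) and 9 in HSV 2 (5.14%), and where silent means 0 counts the share was 2.02% of 99 genes in both. On the opposite strand past the end, 4.27% and 4.93% of 1663 genes within 50 kb were detected, and the strand setting of the counting is not given in the sources used here. Silent genes in introns of expressed genes on the same strand were detected at 0.276% and 0.551% of 1088. G3-YSD 1 and HSV 1 detected more silent genes in all, 561 and 527 against 327 and 350 in G3-YSD 2 and HSV 2, at shares that were alike on both sides of expressed genes. Past the end on the same strand within 50 kb these were 2.57% and 2.30%, before the start 2.64% and 2.75%, and over 50 kb away 1.65% and 1.54%.

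**Figure D4:**
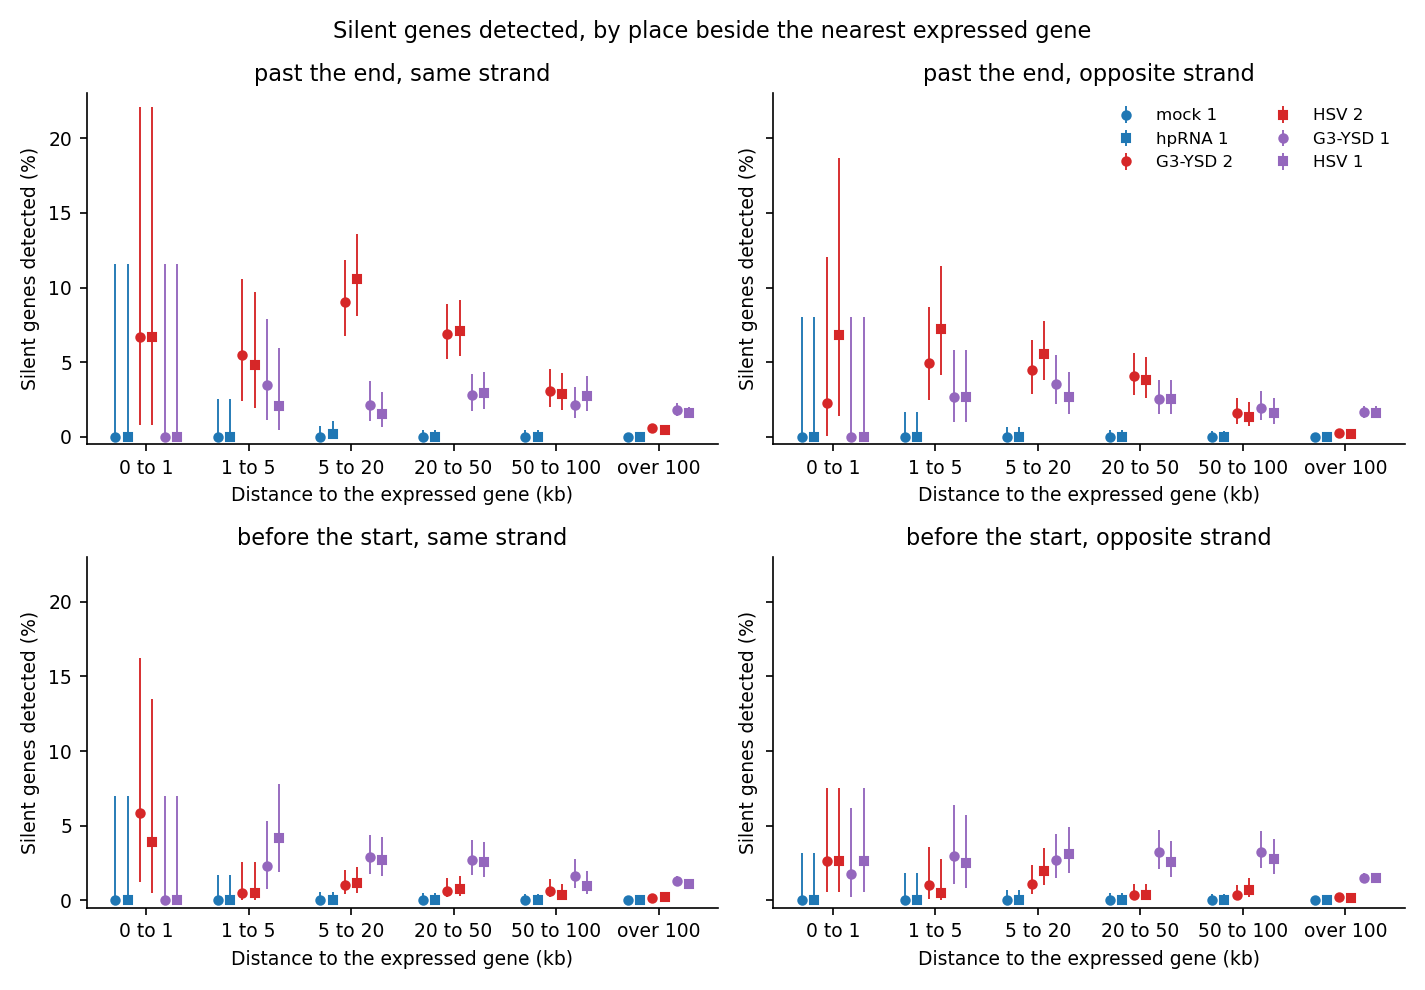
Percent of silent genes detected at equal depth in 6 libraries, by distance (kb) to the nearest expressed gene and by side and strand, with exact 95% intervals. The red points of G3-YSD 2 and HSV 2 reach 9.06% and 10.6% at 5 to 20 kb past the end on the same strand. Before the start they do not pass 1.99% beyond 1 kb. The purple points of G3-YSD 1 and HSV 1 within 50 kb lie between 0% and 4.17%. Pooled over all distances within 50 kb, which is not drawn, their shares were 2.30% to 2.93% on each side and strand.

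Single neighbours are given as examples. They were picked as silent genes within 20 kb past an end with the most counts in G3-YSD 2 and HSV 2. Their high counts and their place were thus set by the choice, and they add no support to the shares above. Gjc1, a gap junction gene (chr11:102799579-102819700), lies 18.8 kb past Eftud2, a spliceosome gene (chr11:102838473-102880985), and had 85 counts in G3-YSD 2 and 66 in HSV 2, at most 2 in G3-YSD 1 and HSV 1 and 0 in the other 8 libraries. Olfr18, an odorant receptor gene 9.04 kb past Zfp560, had 44 and 35 counts. Gm48089, a long noncoding RNA gene 0.407 kb past Dusp6, had 59 and 31 counts. Adam30, 10.3 kb past Notch2, had 30 and 32 counts, Gys2, the liver glycogen synthase, 17.1 kb past Ldhb, had 29 and 29, and Fhl5, 5.72 kb past Ufl1, had 22 and 19. In mock 1 and hpRNA 1 these 6 genes had 0 counts, except 2 counts of Olfr18 in hpRNA 1. The neighbours themselves were expressed in all 4 libraries. Eftud2 stood at 209 CPM in mock 1, 216 in hpRNA 1, 310 in G3-YSD 2 and 295 in HSV 2, Notch2 at 124, 120, 90.1 and 95.3 CPM, and Dusp6 at 61.7, 64.1, 232 and 221 CPM.

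The last 30 bases of these 6 neighbours in GENCODE M21 are shown because the reads lie beyond them, and capitals mark the polyadenylation signals AATAAA and ATTAAA on the gene's strand. The windows are chr11:102838473-102838502 (minus), chr9:20345136-20345165 (minus), chr10:99267460-99267489 (plus), chr3:98150332-98150361 (plus), chr6:142490249-142490278 (minus) and chr4:25248600-25248629 (minus), each the 3′ end of the last exon.
Eftud2 end: gtttataaatgaacaggacattctgacctc
Zfp560 end: ttATTAAActAATAAAatttattttaacat
Dusp6 end: ttattAATAAAtaactattttggctattga
Notch2 end: tatcacaaAATAAAaaaggttccatgtcaa
Ldhb end: tgatcaAATAAAgttagcaattgcagcata
Ufl1 end: atttaaAATAAAgttgtctattctattaca
A signal was found in 5 of these windows, Eftud2 being the exception. Of 38 ends that were followed within 20 kb by a silent gene detected in both G3-YSD 2 and HSV 2, 26 held a signal (68.4%), against 6547 of 9696 ends of expressed protein-coding genes (67.5%). Among 27 cleavage and polyadenylation factors tested, 2 stood higher (7.41%) and 1 lower (3.70%), shares no larger than the 7.76% and 8.91% over all genes. Pcf11, a termination factor, stood at 88.0 CPM in mock 1, 84.2 in hpRNA 1, 331 in G3-YSD 2 and 330 in HSV 2, and rose by label with a log2 fold change of 1.56 (SE 0.267) for G3-YSD at an edgeR adjusted p of 0.0214. Ppp1r10, a phosphatase partner at the same step, stood at 118, 113, 314 and 312 CPM, and Cstf2t, an intronless relative of the cleavage factor CstF-64, at 52.4, 54.7, 13.8 and 13.2 CPM.

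Some markers of other cell types also lay past gene ends. Of 21 in the files, 13 passed the filter on low counts and 4 stood higher (30.8%, against 7.76% over all genes), namely Pecam1, Tek, Krt8 and Csf1r. Pecam1 and Krt8 lay at or below 0.613 CPM in all libraries but G3-YSD 2 and HSV 2. Genes that passed the filter only where they are high had to differ, so this share cannot be ranked against that of all genes. The endothelial genes Pecam1 and Tek lay 17.6 kb past Polg2 and 46.1 kb past Ift74. Pecam1 stood at 0.227 CPM in mock 1, 0.399 in hpRNA 1, 2.92 in G3-YSD 2 and 3.47 in HSV 2. Kdr, another endothelial gene, stood at 0.284, 0.171, 0.0769 and 0.0826 CPM, and Cdh5 at or below 0.248 CPM. The summed level of all 21 such markers was 125 and 129 CPM in mock 1 and hpRNA 1 and 135 and 137 CPM in G3-YSD 2 and HSV 2. Cd68 made up the largest part of that sum, at 73.0 to 85.8 CPM in the 4 libraries. Des stood between 24.4 and 29.9 CPM there, Lyz2 between 12.2 and 17.3 and Cd14 between 2.91 and 4.08. Snap25, Syt1 and Map2 had no count in the 4 libraries, and Epcam stood at or below 0.171 CPM. The part of other cells in these results was not tested.

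On the lower side, genes with few exons stood out. Cldn9, a claudin gene of 1 exon, stood at 50.9 CPM in mock 1, 52.5 in hpRNA 1, 3.69 in G3-YSD 2 and 3.47 in HSV 2, and Tlnrd1, also of 1 exon, at 65.0, 64.8, 6.92 and 8.42 CPM. Slc5a3, an inositol transporter with 98.5% of its length in 1 exon, stood at 83.8, 74.7, 5.92 and 6.19 CPM, and Xrcc2, a recombination repair gene, at 34.7, 32.5, 4.0 and 4.05 CPM. Xrcc2 stood at 35.4 and 37.3 CPM in G3-YSD 1 and HSV 1 and Tlnrd1 at 48.5 and 45.9 CPM, so these were low in G3-YSD 2 and HSV 2 only among the 6 libraries compared. Of the 12 genes with the widest gap on this side, 9 had 1 or 2 exons in the transcript with the longest coding sequence.

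This feature was looked at after the values of these genes were seen. Among 9705 protein-coding genes with at least 5 CPM in the 6 libraries named above, 145 had 1 exon. Of these, 64 stood 2-fold lower in G3-YSD 2 and HSV 2 (44.1%, interval 35.9% to 52.6%), with a median log2 difference of -1.01. With exons taken from the longest transcript the share was 21.4%, or 101 of 472 genes. Of 361 genes with 2 exons 46.5% stood lower, of 524 with 3 exons 28.8%, of 1346 with 4 to 5 exons 17.5%, and of 1385 with over 20 exons 3.97%. The share was smaller at each step from 2 exons on. In G3-YSD 1 and HSV 1, set against the same mock 1 and hpRNA 1, 7.59% of the 1-exon genes stood lower, 12.5% of those with 2 exons, 7.06% of those with 3, and between 5.79% and 7.06% of those in each group with more. Among transcripts of 2000 to 4000 bases the shares lower in G3-YSD 2 and HSV 2 were 57.7% of 52 genes with 1 exon and 2.74% of 292 with over 20. Of the 145 genes with 1 exon, 3 stood higher, namely Jun, Cdk5r1 and Lpar6, while Jund, also of 1 exon, stood lower at 53.5, 50.1, 11.1 and 9.41 CPM.

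**Figure D5:**
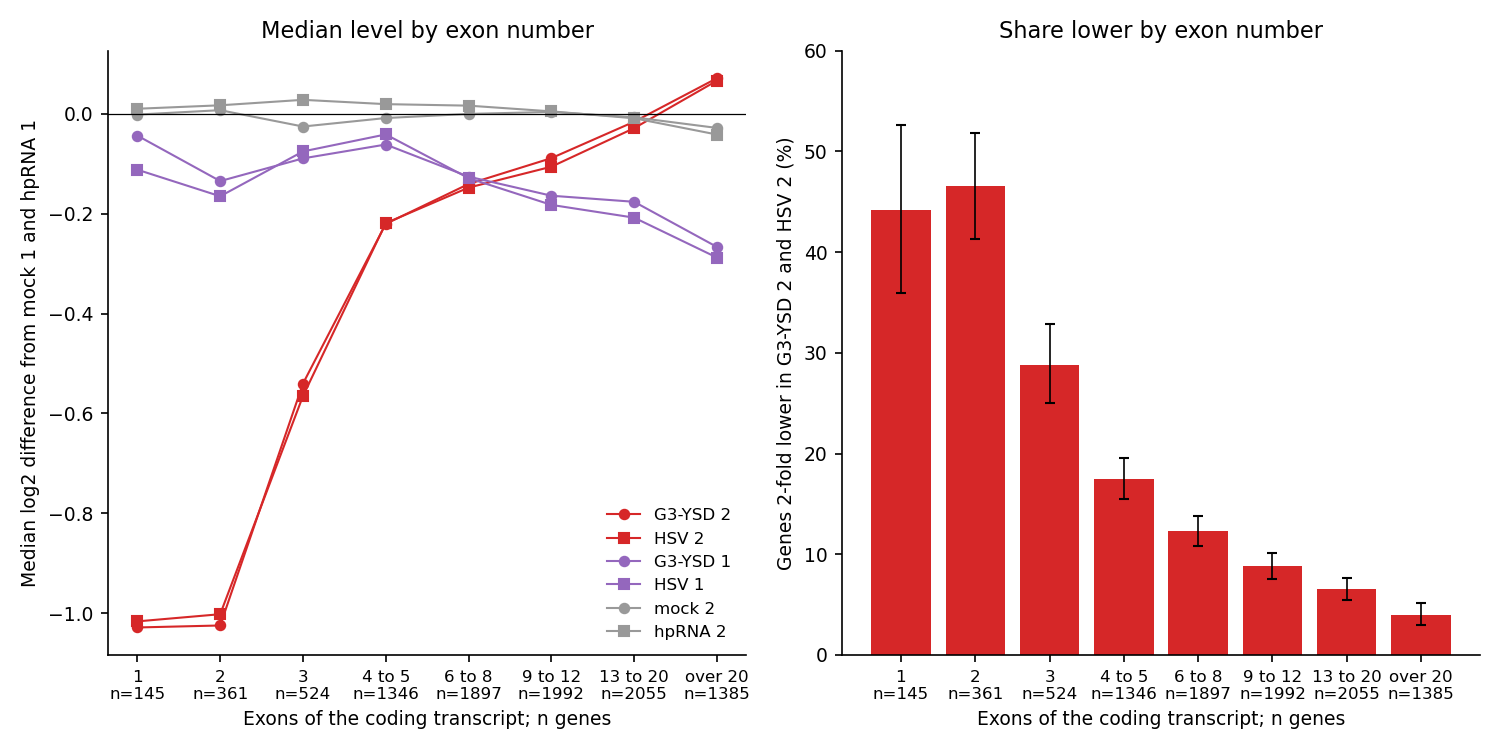
Protein-coding genes grouped by the exon number of the coding transcript, with the number of genes under each group. Left, the median log2 difference of 6 libraries from the mean of mock 1 and hpRNA 1; right, the percent of genes at least 2-fold lower in G3-YSD 2 and HSV 2, with exact 95% intervals. The red lines of G3-YSD 2 and HSV 2 run from about -1 at 1 and 2 exons to just above 0 at over 20 exons, and the lines of the other 4 libraries stay between -0.29 and 0.03.

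The remaining libraries were placed beside the pairs for the genes that stood apart. A gene was placed on a scale from 0, the mean of mock 1 and hpRNA 1, to 1, the mean of G3-YSD 2 and HSV 2. The libraries that set 0 and 1 also chose the genes. Places short of 1 elsewhere thus follow in part from that choice and do not measure how far the state was shared. For the 1307 higher genes the median place was 0.418 in G3-YSD 1 and 0.381 in HSV 1, and between 0.0423 and 0.0690 in the 6 libraries labelled mock 2, hpRNA 2, HT-DNA and cGAMP. For the 1501 lower genes it was 0.282 and 0.277 in G3-YSD 1 and HSV 1, and between 0.0180 and 0.0605 in the 6 others. Set against mock 2 and hpRNA 2, 1320 genes stood higher in G3-YSD 2 and HSV 2 and 1615 lower. Those 2 libraries also lie close by counts, at a ratio of 1.69, and G3-YSD 2 and HSV 2 stayed chosen by counts. This is thus no separate support. Scaling moved the balance: with library totals 1193 stood higher and 1838 lower than in mock 1 and hpRNA 1, and with upper quartile scaling 1637 and 1106. The median log2 difference over all genes tested was 0.04 with TMM scaling, -0.06 with library totals and 0.22 with upper quartile scaling, and differences are to be read against it.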

How the data were processed

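The authors deposited raw read counts per Ensembl gene, 1 file for each of the 12 libraries. Per the submitters' processing notes, HISAT2 and HTSeq were used with mm10. Which annotation release and strand setting they used is not given in the sources used here. Counts of genes that overlap, lie antisense to each other or have close copies are therefore uncertain. Of 54532 genes, 54495 matched GENCODE M21, which gave symbols and positions.

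Counts were scaled to CPM by TMM. A gene stood apart when the nearest libraries of the 2 pairs differed at least 2-fold in CPM + 0.1 and the lower library of the higher pair had at least 1 CPM, with no test, since the 4 libraries were selected on these counts. The labels were tested with edgeR 4.0.16 (quasi-likelihood, all 12 libraries, 16840 genes after filterByExpr, 6 residual degrees of freedom, Benjamini-Hochberg adjusted p under 0.05); DESeq2 1.42.0 was an alternative. The script was tested on simulated data. Totals between 12650790 and 18912400 counts limit detection of low genes.

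The libraries, the 24 gene lists and the rules were chosen with earlier results of these data known. Named genes are the 12 with the widest gap in each direction (at least 5 CPM), up to 4 per list, 8 silent genes past expressed ones with the most counts, and a panel of 30. Some genes are not reported here.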

Additional observations from a re-analysis of the deposited data

How the results depend on the processing

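By label, the 869 genes called for G3-YSD against mock and the 876 for HSV became 1894 and 1892 without a filter on low counts, 2191 and 2267 with DESeq2, and 0 and 0 with edgeR in only the 4 libraries of the 2 labels, where 1766 and 1800 had an unadjusted p under 0.05. Leaving out each replicate in turn gave 0 to 652 for G3-YSD and 0 to 682 for HSV. With the replicate block the counts were 1211 and 1214, and with crossed numbers for G3-YSD and HSV, chosen after seeing the data, 1878 and 1935; deviations of same-numbered libraries correlated between -0.36 for mock 1 with HSV 1 and 0.94 for G3-YSD 1 with HSV 1, so the numbers do not pair all labels. The 1307 higher and 1501 lower genes became 2004 and 2872 at 1.5-fold, 696 and 204 at 4-fold, and the higher ones 494 at 5 CPM. Leaving out a library gave 1426 to 1636 and 1660 to 1768. The rule compares the nearest libraries of the pairs, so at the same scaling leaving out a library cannot lower these counts. The share of silent genes within 5 kb past an end was 11.4% in G3-YSD 2 and 12% in HSV 2 at 3 counts and 2.02% and 2.02% of 99 where silent means 0 counts, and 1.71% in G3-YSD 2 at 10 counts. The summed interferon-stimulated level was 1925 and 1929 CPM with library totals, 2245 and 2246 with upper quartile scaling, and 1543 and 1524 without the 3 highest members. The share of 1-exon genes lower was 54.7% without predicted or pseudogene-like symbols, 35.2% with upper quartile scaling and 21.4% with exons of the longest transcript, which counts 472 genes as 1-exon; these settings were chosen after seeing the data. Where no cause is named, the cause was not tested.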
